A study of Mus musculus with 6 samples.

Results

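The genes described here encode the enzymes of serine synthesis and of the folate one-carbon cycle, in activated mouse splenic T cells. They were the 10 genes Phgdh, Psat1, Psph, Shmt1, Shmt2, Mthfd1, Mthfd1l, Mthfd2, Mthfd2l and Aldh1l2, taken from 52550 genes by matching Ensembl identifiers, with the version removed, to these symbols. All 10 were found, with 66 annotated transcripts, of which 62 had at least 1 count. RNA was sequenced from wild-type splenic CD3+ T cells isolated with magnetic beads and activated with anti-CD3/CD28 for 24 h. In the TCR alone group (n = 3) the cells received the activator and nothing else. In the TCR+DMGV group (n = 3) the small molecule DMGV was also present, at 100 ng/ml. DMGV, dimethylguanidino valeric acid, is a mitochondrial product of the methylated arginines ADMA and SDMA, and the study's text calls the compound of the matching experiment LNY1, a factor from fibroblast medium that it relates to ADMA and SDMA. The question was how the compound altered TCR-induced gene expression. All 6 samples were activated, so the data hold no resting T cells and show no effect of activation. The replicates are biological according to the labels. The study's methods describe young mice of both sexes, a few weeks old, for its animal work in general. The sex and age behind each sample, and whether spleens were pooled, are not given in the sources used here.

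Serine is made from the glycolytic intermediate 3-phosphoglycerate by the consecutive action of Phgdh, Psat1 and Psph. The serine hydroxymethyltransferases Shmt1, in the cytosol, and Shmt2, in the mitochondrion, move a carbon from serine to tetrahydrofolate and leave glycine. In the mitochondrion Mthfd2 or Mthfd2l oxidizes the carbon and Mthfd1l releases it as formate, while Aldh1l2 can oxidize it to carbon dioxide with the formation of NADPH. In the cytosol the trifunctional Mthfd1 takes formate back into folate for the synthesis of purines and thymidylate. Activated T cells are known to raise this pathway as they enter growth and division.

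The summed gene counts ran from 37758725 to 43718867 per sample. These sums lie above the read depth that the labels state, and how the whole-number counts were made is not stated, so a count may not stand for a single read. On the first principal component, which held 32.2% of the variance of log2 CPM (counts scaled to a common library size), TCR alone replicate 3 and TCR+DMGV replicate 1 lay at 42.1 and 42.9 and the other 4 samples between -34.9 and -10.5. The same 2 samples had a rising trend of gene level with GC content, by 0.228 and 0.155 on the log2 scale per 10 points of GC, against falling trends of -0.154 to -0.0307 in the others. These samples belong to different groups, and among the 10 genes, values that turn sign without them are given below. The T cell markers Cd3d, Cd3e, Cd3g, Cd2, Cd5, Trac and Trbc2 summed to 2140 to 2421 CPM in TCR alone and to 2372 to 2576 CPM in TCR+DMGV. B cell markers summed to at most 10.9 CPM and monocyte and macrophage markers to at most 11.6 CPM, with Cd14 at 0 in all samples, and the neutrophil markers S100a8, S100a9 and Retnlg had no count. In such bulk RNA, fewer cells of a type and less RNA per cell cannot be told apart.

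Most of the pathway was at a high level in the activated T cells. Levels between genes were compared as FPKM, fragments scaled to transcript length and library size. Shmt2 stood highest, at 207 ± 12.4 FPKM (SD, n = 6), and Phgdh followed at 175 ± 10.3 FPKM, with no overlap of the values of these genes. Mthfd1 came next at 96.3 ± 5.89 FPKM, again apart from Phgdh. These genes exceeded 99.1%, 98.9% and 97.8% of all genes with a count by mean FPKM.

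Psat1 (67.4 ± 16.1 FPKM), Mthfd2 (60.8 ± 4.21), Mthfd1l (55.0 ± 3.49) and Shmt1 (53.2 ± 2.15) formed a middle tier, in which the range of each gene overlapped that of the next. Psat1 exceeded Mthfd2 in 2 of 6 samples, and Mthfd1l exceeded Shmt1 in 4 of 6, so the means do not fix their order. Mthfd2 exceeded Mthfd1l within each of the 6 samples. Psph, the phosphatase of the last step of serine synthesis, was apart from these genes at 15.6 ± 1.41 FPKM.

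Mthfd2l and Aldh1l2 stood far below the rest, at 0.351 ± 0.077 and 0.145 ± 0.059 FPKM. Mean Psph was 44.4 times the mean of Mthfd2l, and Mthfd2l 2.42 times Aldh1l2. Their raw counts ran from 85 to 135 for Mthfd2l and from 30 to 76 for Aldh1l2, against 2428 or more for each of the other 8 genes. At these counts the intervals of their fold changes were wide. The order of the gene means was the same when transcript FPKM values were summed, apart from Mthfd1l, which then stood below Shmt1 (69.0 and 78.9 FPKM). The summed values were higher than the gene values, for example 121 FPKM for Psat1 and 44.3 FPKM for Psph.

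**Figure D1:**
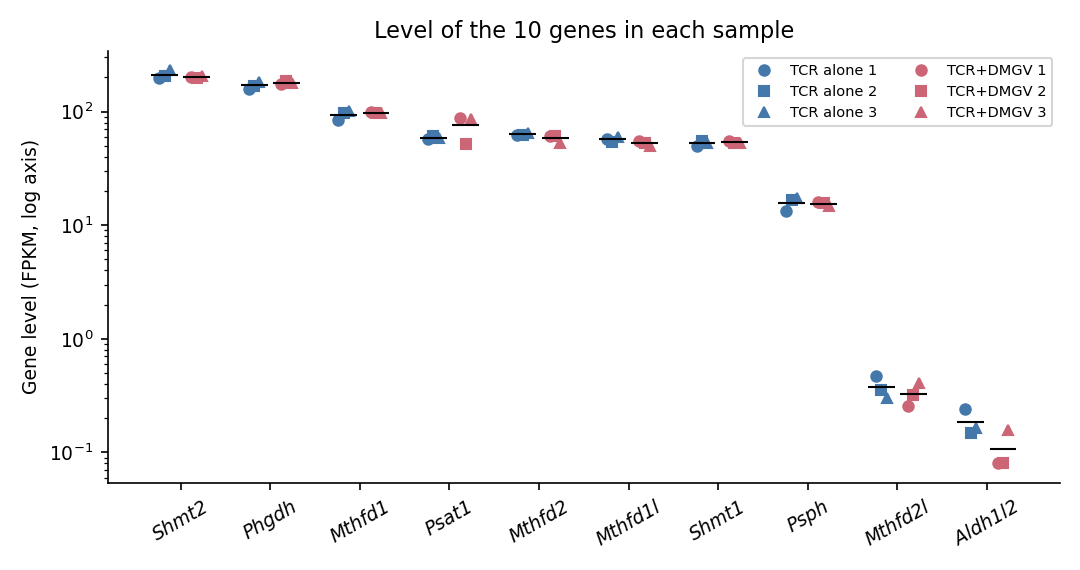
Gene level in FPKM on a log axis for the 10 genes in each of the 6 samples, with TCR alone in blue, TCR+DMGV in red, a marker shape per replicate number and a black line at each group mean. Shmt2 and Phgdh lie highest, 5 further genes lie close together, and Mthfd2l and Aldh1l2 lie below 1 FPKM in all samples.

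None of the 10 genes passed the threshold in TCR+DMGV against TCR alone. In edgeR's quasi-likelihood test 0 of 10 genes had a Benjamini-Hochberg adjusted p under 0.05, against 2 of the 14786 genes tested (0.0135%), and the adjusted p was 0.999 for each of the 10. At an unadjusted p under 0.05 the count was also 0 of 10, against 3.19% of all genes. DESeq2 likewise gave 0 of 10 at an adjusted p under 0.05 (0.0622% of its genes) and 0 of 10 at an unadjusted p under 0.05 (2.22%). On log2(FPKM + 1), limma gave 0 of 10 at either level, against 0.0% and 4.0% of its genes. Relative to TCR alone, 5 genes had higher and 5 lower values in TCR+DMGV, where 50.6% of all genes had higher ones. The median log2 fold change was -0.026 beside 0.0024 for all genes tested, and it was 0.024 without both samples that stood apart. The normalised read counts of the groups did not overlap for 2 of 10 genes, Mthfd1l and Mthfd2, both lower in TCR+DMGV, where 8.86% of all genes did not overlap and 3.94% were lower without overlap. With 3 samples against 3 an exact permutation test cannot go below p = 0.1. In simulated data with these depths, some genes were given a log2 fold change of 1, up or down. Of these, 44.9% were called by the same edgeR test, a share over all genes and not over these 10. A 2-fold change in either direction lay outside the 95% interval of each of the 10 genes except Aldh1l2.

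The summed FPKM of the 10 genes was 725 ± 43.8 in TCR alone and 736 ± 18.7 in TCR+DMGV (SD, n = 3 each, exact two-sided permutation p = 0.8). The groups overlapped, and they differed by less than the spread between replicates. For the 7 genes Phgdh, Psph, Shmt1, Shmt2, Mthfd1, Mthfd1l and Mthfd2 the 95% intervals of the fold change lay between 0.820 and 1.22. For Psat1, Mthfd2l and Aldh1l2 the intervals were wider, from 0.953 to 1.77 for Psat1, from 0.564 to 1.38 for Mthfd2l and from 0.312 to 1.10 for Aldh1l2.

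**Figure D2:**
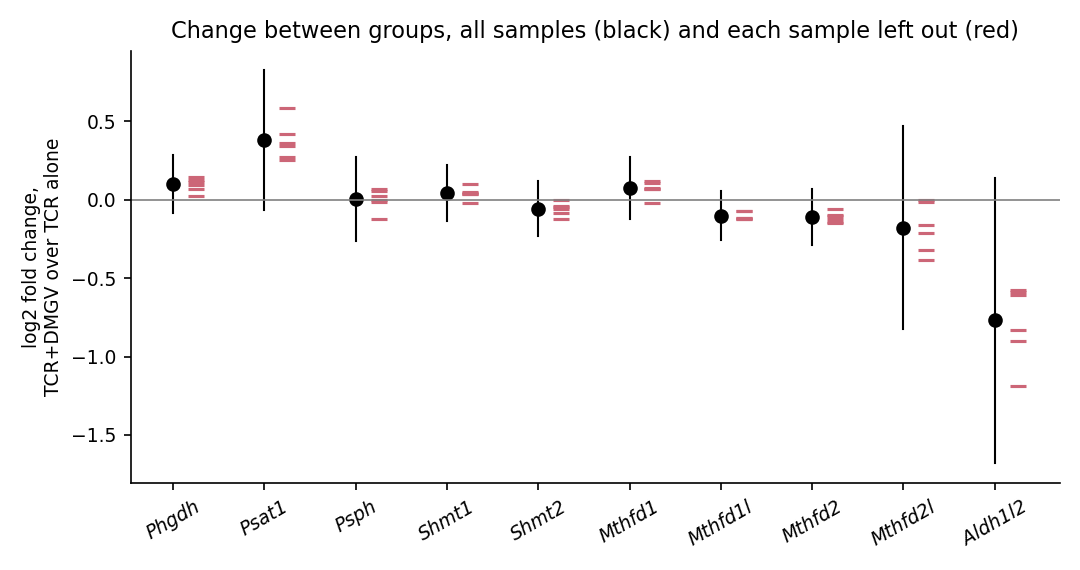
Log2 fold change of TCR+DMGV over TCR alone for each gene in edgeR, with its 95% interval in black and, in red, the values with each of the 6 samples left out in turn. All intervals include 0, and those of Psat1, Mthfd2l and Aldh1l2 are the widest.

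The serine synthesis genes did not move together. Psat1, the phosphoserine aminotransferase, carried most of the variation, while Phgdh, the dehydrogenase that commits 3-phosphoglycerate to serine, and Psph were steadier. Phgdh (chr3:98313170-98339990, minus strand; GRCm38, as are all positions here) was at 436, 483 and 499 CPM in TCR alone replicates 1 to 3 and at 484, 527 and 508 CPM in TCR+DMGV replicates 1 to 3, where CPM are counts scaled by TMM library size. The lowest sample was TCR alone replicate 1, and the groups overlapped. Phgdh has 19 similar sequences elsewhere in the genome, and the part of reads shared with them was not tested. The means were 473 ± 32.9 and 506 ± 21.6 CPM (SD, n = 3 each). The log2 fold change was 0.10 (SE 0.08, 95% interval -0.085 to 0.28, exact permutation p = 0.2).

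Psat1 (chr19:15904678-15947337, minus strand) was at 272, 297 and 272 CPM in TCR alone. In TCR+DMGV it was at 416, 252 and 424 CPM. TCR+DMGV replicates 1 and 3 thus lay above all TCR alone samples and replicate 2 below all of them. The means were 280 ± 14.4 and 364 ± 97.1 CPM (SD, n = 3 each). The log2 difference of 0.38 was not past the threshold (SE 0.19, 95% interval -0.069 to 0.82, unadjusted edgeR p = 0.0858, exact permutation p = 0.4). Its within-group SD of 0.305 on the log2 scale was larger than that of 86.6% of genes with a mean above 3 log2 CPM. Without TCR+DMGV replicate 2 the log2 fold change was 0.58, at an unadjusted edgeR p of 0.00049 and an adjusted p of 0.573, and without TCR+DMGV replicate 3 it was 0.26.

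Psph (chr5:129765558-129787449, minus strand) was at 63.9, 82.0 and 81.9 CPM in TCR alone and at 76.4, 78.0 and 73.9 CPM in TCR+DMGV. TCR alone replicate 1 was again the lowest sample, and the values of TCR+DMGV lay within the range of TCR alone. The log2 fold change was 0.0035 (SE 0.11, 95% interval -0.26 to 0.27), and its sign depended on the normalization. The longest annotated Psph transcript, Psph-205, shares 255 bases at its 5′ end with a Cct6a transcript on the opposite strand. Psph-201 starts further upstream, at 129787449 against 129787252, and its own overlap was not measured. Cct6a had 29550 to 38243 counts, and the counting is not stated to use strand. How many reads of the overlap were counted for Psph was not tested.

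The genes whose centred log2 CPM profile over the 6 samples was most like that of Psat1 were Exo5, a single-strand exonuclease, at a root mean square difference of 0.061, Spin2c at 0.095 and the lincRNA Gm44066 at 0.11. Exo5 was at 10.1, 10.8 and 10.2 CPM in TCR alone and at 14.3, 9.96 and 15.7 CPM in TCR+DMGV. It was thus also low in TCR+DMGV replicate 2. Over the 6 samples Spin2c lay between 4.63 and 7.37 CPM. Gm44066 lay between 0.369 and 0.562 CPM, so its profile rests on few counts. For Psph the nearest genes were Erh (0.025), Cdk5rap3 (0.029) and S100a10 (0.029), and for Mthfd1 they were Top1mt (0.012), Tnfsf14 (0.018) and Polr2h (0.018). The 3 Psph neighbours and the 3 Mthfd1 neighbours were all lowest in TCR alone replicate 1. These genes were picked for likeness among all genes tested, over 6 samples, and the likeness is a description.

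**Figure D3:**
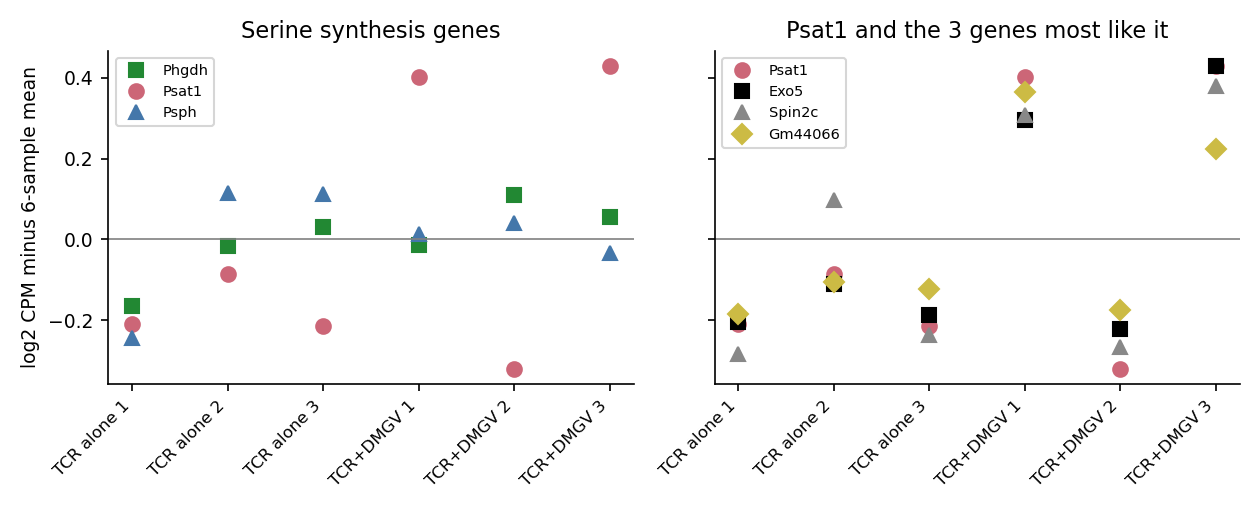
Deviation of log2 CPM from the 6-sample mean in each sample for Phgdh, Psat1 and Psph (left) and for Psat1 with the 3 genes of most similar profile (right). Psat1 is high in TCR+DMGV replicates 1 and 3 and low in replicate 2, a pattern that Phgdh and Psph do not share.

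The promoter windows of the serine synthesis genes are shown because Psat1 varied between samples where Phgdh and Psph did so less. The windows hold 250 bases before and 50 after the start, from RefSeq on GRCm38.p6. Capitals mark the CCAAT box (CCAAT, or ATTGG on the other strand) and the GC box (GGGCGG, or CCGCCC on the other strand), motifs chosen after the data were seen. The windows lie at chr3:98339920-98340219, chr19:15925010-15925309 and chr5:129787204-129787503, all on the minus strand.
Phgdh: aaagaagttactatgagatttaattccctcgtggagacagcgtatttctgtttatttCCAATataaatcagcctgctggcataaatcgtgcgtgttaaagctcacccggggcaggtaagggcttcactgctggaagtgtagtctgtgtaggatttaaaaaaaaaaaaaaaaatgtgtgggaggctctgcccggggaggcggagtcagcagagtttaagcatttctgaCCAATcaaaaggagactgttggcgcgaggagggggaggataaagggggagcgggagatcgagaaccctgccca
Psat1: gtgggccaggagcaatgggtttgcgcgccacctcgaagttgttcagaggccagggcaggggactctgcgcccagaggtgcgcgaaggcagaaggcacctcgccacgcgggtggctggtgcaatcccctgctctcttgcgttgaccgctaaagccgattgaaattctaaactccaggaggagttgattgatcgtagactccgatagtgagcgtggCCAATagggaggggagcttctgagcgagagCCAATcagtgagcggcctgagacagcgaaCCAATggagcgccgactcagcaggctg
Psph: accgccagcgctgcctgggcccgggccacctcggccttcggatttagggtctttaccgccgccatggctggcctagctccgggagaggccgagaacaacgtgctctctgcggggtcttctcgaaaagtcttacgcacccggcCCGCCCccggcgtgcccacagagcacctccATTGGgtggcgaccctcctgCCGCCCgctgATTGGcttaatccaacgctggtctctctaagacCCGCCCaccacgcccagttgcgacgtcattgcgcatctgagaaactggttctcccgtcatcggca
The Phgdh window holds 2 CCAAT boxes, this Psat1 window 3, and the Psph window 2 CCAAT boxes and 3 GC boxes. Psat1 has a second window, not printed, at chr19:15924573-15924872, with 0 CCAAT boxes and 2 GC boxes. Of the 10 windows that RefSeq gave for 9 of the genes, 6 hold a CCAAT box and 6 a GC box, against 37.4% and 35.7% of 32851 windows of the same length. The E-box CACGTG, a sequence that Myc can bind, and TGATGNAA, a core of elements that ATF4 can bind, were found in 0 of these 10 windows on either strand, against 7.15% and 3.97% of all windows. No searched motif overlaps another in the printed windows. None of these matches is evidence of binding.

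Neither serine hydroxymethyltransferase differed between the groups beyond its spread. Shmt2 (chr10:127517123-127522444, minus strand), the mitochondrial enzyme and the most abundant of the 10 genes, was at 687, 737 and 788 CPM in TCR alone and at 691, 701 and 734 CPM in TCR+DMGV. All TCR+DMGV values lay inside the range of TCR alone. The log2 fold change was -0.06 (SE 0.08, 95% interval -0.23 to 0.12), and it became 0.014 without both samples that stood apart on the first principal component. Shmt1 (chr11:60788104-60811718, minus strand), the cytosolic enzyme, was at 214, 248 and 225 CPM in TCR alone and at 235, 234 and 238 CPM in TCR+DMGV. The groups overlapped, and the log2 fold change was 0.04 (SE 0.08, 95% interval -0.14 to 0.22). Its 3′ end overlaps Smcr8 on the opposite strand, which had 2723 to 3379 counts, and the part of that overlap was not tested.

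The balance between mitochondrial and cytosolic enzyme was read as the ratio of Shmt2 to Shmt1 in FPKM. It was 4.003, 3.71 and 4.38 in TCR alone and 3.67, 3.74 and 3.85 in TCR+DMGV. Shmt2 thus exceeded Shmt1 several-fold in each sample, and the groups overlapped. The group means were 4.03 ± 0.333 and 3.75 ± 0.0887 (SD, n = 3 each, exact permutation p = 0.3, 0.45 after adjustment over the 3 ratios tested).

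Mthfd1, the cytosolic enzyme (chr12:76255298-76319803, plus strand), was at 418, 500 and 489 CPM in TCR alone and at 488, 497 and 495 CPM in TCR+DMGV. TCR alone replicate 1 was low, and the other 5 samples lay close together. The log2 fold change was 0.07 (SE 0.08, 95% interval -0.13 to 0.27), and it was -0.020 without TCR alone replicate 1.

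In the mitochondrial branch, Mthfd2 and Mthfd1l were slightly lower in each TCR+DMGV sample than in any TCR alone sample, without passing the threshold. Mthfd2 (chr6:83305691-83325908, minus strand), the dehydrogenase and cyclohydrolase of dividing cells, was at 242.6, 250 and 250 CPM in TCR alone and at 233, 242.5 and 212 CPM in TCR+DMGV. The highest TCR+DMGV sample nearly touched the lowest TCR alone sample. The means were 248 ± 4.33 and 229 ± 15.5 CPM (SD, n = 3 each). The log2 fold change was -0.11 (SE 0.08, 95% interval -0.29 to 0.066, unadjusted edgeR p = 0.184, exact permutation p = 0.1).

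Mthfd1l, the formate-releasing synthetase (chr10:3973118-4167081, plus strand), was at 282, 276 and 292 CPM in TCR alone and at 269, 270 and 254 CPM in TCR+DMGV. The means were 284 ± 8.12 and 264 ± 9.17 CPM. The log2 fold change was -0.10 (SE 0.07, 95% interval -0.26 to 0.056, unadjusted edgeR p = 0.173, exact permutation p = 0.1). With each sample left out in turn it ran from -0.12 to -0.072, and that of Mthfd2 from -0.15 to -0.057. As the groups did not overlap for either gene, leaving out 1 sample could hardly turn the sign. Among genes above 3 log2 CPM, 3.10% had a smaller within-group SD than Mthfd1l, which makes it among the steadiest genes of the set.

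The ratio of Mthfd1l to Mthfd1 in FPKM, mitochondrial over cytosolic, was 0.676, 0.554 and 0.598 in TCR alone and 0.552, 0.544 and 0.514 in TCR+DMGV. The groups did not overlap, though TCR alone replicate 2 and TCR+DMGV replicate 1 nearly met. The means were 0.609 ± 0.0620 and 0.537 ± 0.0203, a difference of -0.18 on the log2 scale (exact permutation p = 0.1, 0.3 after adjustment over the 3 ratios). The highest ratio was that of TCR alone replicate 1, the sample with the lowest Mthfd1. Dropping that sample brought the log2 difference to -0.101 (exact permutation p = 0.2). Over all such single omissions the difference lay between -0.245 and -0.101, so its size depended on the samples. As the groups did not overlap, leaving out 1 sample could not turn its sign. The ratio of Mthfd2 to its paralog Mthfd2l ran from 130 to 235 over the 6 samples, and its difference between groups took either sign depending on the pseudocount (exact permutation p = 0.8 without a pseudocount).

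The low genes had few counts. Mthfd2l (chr5:90931117-91021368, plus strand) had raw counts of 135, 111 and 93 with TCR alone and of 85, 105 and 126 with DMGV, and its log2 fold change was -0.18 (SE 0.28, 95% interval -0.83 to 0.47). Aldh1l2 (chr10:83487450-83534140, minus strand) had raw counts of 76, 52 and 59 with TCR alone and of 30, 30 and 55 with DMGV. TCR+DMGV replicates 1 and 2 lay below all TCR alone samples, and replicate 3 lay inside their range. Its log2 fold change of -0.77 was the lowest of the 10 genes and had the widest interval (SE 0.39, 95% interval -1.68 to 0.14, unadjusted edgeR p = 0.0862, exact permutation p = 0.2). Without TCR+DMGV replicate 3 it was -1.19, at an unadjusted edgeR p of 0.0166 and an adjusted p of 1.000, and without TCR alone replicate 1 it was -0.57. The 3′ end of Aldh1l2 shares 1056 annotated bases with D10Wsu102e on the opposite strand, which had 3993 to 4658 counts, and the part of this stretch in the Aldh1l2 counts was not tested.

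At the level of transcripts, 0 of 41 tested transcripts of the 10 genes passed the edgeR threshold, beside 0 of 38401 transcripts tested in all (0.0%), and 1 had an unadjusted p under 0.05, against 3.22% of all transcripts. A single protein-coding transcript held nearly all counts of Phgdh (Phgdh-201, 99.3 to 99.8% over the 6 samples), Mthfd2 (Mthfd2-201, 99.3 to 99.5%) and Mthfd1 (Mthfd1-201, 95.2 to 98.9%). Shmt2, Mthfd1l, Psat1 and Psph were split between transcripts. How reads were divided between overlapping transcripts is not stated, so a share is the authors' assignment of counts.

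Shmt2-201 held 74.2 to 79.3% and Shmt2-206 18.9 to 22.8% of the Shmt2 counts, so this split was close to constant over the samples. The pair differs at the start of exon 2, where Shmt2-201 keeps 9 more coding bases, which leaves the reading frame as it is. The joins are shown with these bases in capitals. The first 30 bases end exon 1 (chr10:127522288-127522317, minus strand) and the rest begin exon 2 (chr10:127521077-127521115 for Shmt2-201 and chr10:127521077-127521106 for Shmt2-206), from GENCODE M21.
Shmt2-201: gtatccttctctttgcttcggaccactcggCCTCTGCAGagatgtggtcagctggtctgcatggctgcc
Shmt2-206: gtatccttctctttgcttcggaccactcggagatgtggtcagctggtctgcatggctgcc
Their counts were 5537, 5695 and 6389 for Shmt2-206 in TCR alone and 7025, 6151 and 6051 in TCR+DMGV, and the share of Shmt2-201 was 77.7 ± 1.73% against 75.9 ± 1.47% (SD, n = 3 each, exact permutation p = 0.3).

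As the authors assigned counts, the Psat1 variation lay mainly in its protein-coding transcript. In TCR alone Psat1-201 had 7937, 9318 and 9504 counts, and in TCR+DMGV 16281, 9231 and 14261, with a log2 fold change of 0.50 (SE 0.22) and an adjusted edgeR p of 1.0. Psat1-204, a retained-intron transcript, did not follow it, with 2251, 2708 and 1565 counts for the TCR alone samples and 2050, 1546 and 2439 for those with DMGV. All but 283 of the 1572 annotated bases of Psat1-204 also lie in exons of Psat1-201, so the split depends on how shared reads were divided. The share of Psat1-201 was 76.7, 76.9 and 84.5% in TCR alone and 87.9, 85.0 and 84.8% in TCR+DMGV, a difference of 6.51 percentage points. The groups did not overlap, but TCR alone replicate 3 came within a point of TCR+DMGV replicates 2 and 3 (exact permutation p = 0.1, 1.0 after adjustment over the 10 genes).

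Shmt1 showed its split in 1 library. Shmt1-206, a retained-intron transcript, had 51, 14 and 44 counts with TCR alone, 100 in TCR+DMGV replicate 1, 2113 in replicate 2 and 75 in replicate 3. It held 21.0% of the Shmt1 counts in TCR+DMGV replicate 2 and 0.14 to 0.96% in the other samples. The share of the protein-coding Shmt1-201 was 76.7% in that sample and 96.2 to 97.8% elsewhere, while the gene level there, 234 CPM, was like that of the others. This transcript is the one with an unadjusted edgeR p under 0.05 (log2 fold change 4.27, SE 1.56), and that value rests on the 1 sample. The borders of the retained introns are shown because these transcripts differ from the coding ones there. Capitals mark exon and lower case intron, at chr19:15909400-15909459 for Psat1-204, which keeps 283 intron bases, and at chr11:60797495-60797554 for Shmt1-206, which keeps 280, both on the minus strand.
Psat1-204: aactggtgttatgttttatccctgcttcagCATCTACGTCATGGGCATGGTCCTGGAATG
Shmt1-206: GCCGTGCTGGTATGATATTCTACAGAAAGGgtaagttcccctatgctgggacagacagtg

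Mthfd1l-201 and Mthfd1l-202, which share their annotated coding ends, held 75.6 to 86.7% and 13.0 to 23.9% of the Mthfd1l counts. Psph-201 held 84.5 to 90.3% and the shorter Psph-202 7.94 to 11.5% of the Psph counts. In both genes the groups overlapped in the share of the leading transcript. Mthfd2l-201 held 69.9 to 95.2% of a gene with few counts. Of its other transcripts, Mthfd2l-202 reached 15 counts in TCR alone replicate 3 and Mthfd2l-203 reached 27 in TCR+DMGV replicate 3, against at most 6 elsewhere. Mthfd2l-204, a processed transcript, had 12, 15 and 10 counts with TCR alone and 5, 0 and 6 with DMGV, lower without overlap and not past the threshold, with a log2 fold change of -1.78 (SE 1.04) and an adjusted edgeR p of 1.0. Aldh1l2-201 held 91.5 to 100.0% of the Aldh1l2 counts.

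**Figure D4:**
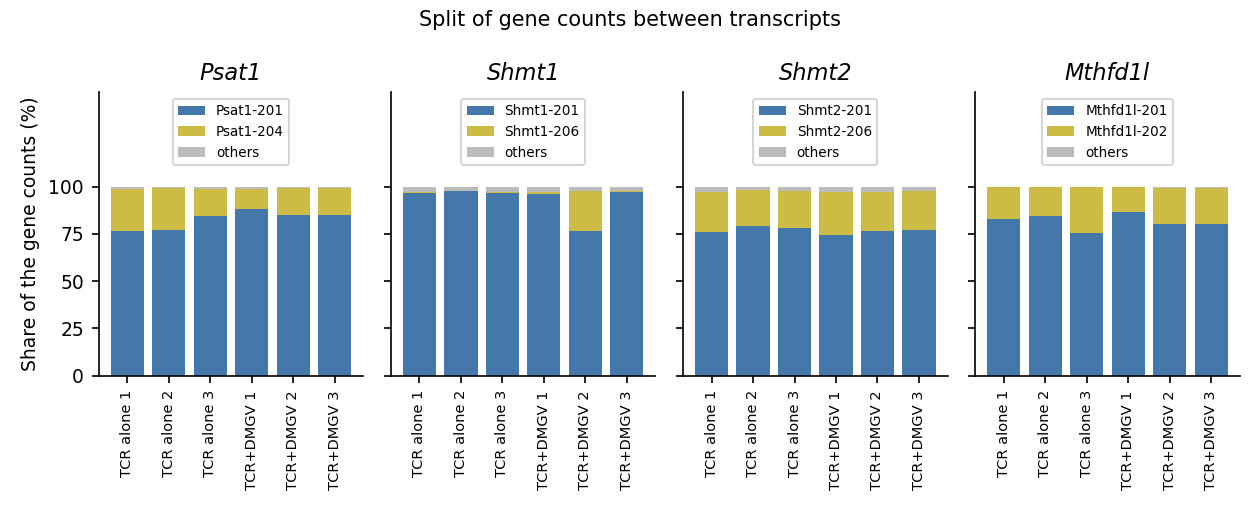
Share of each gene's counts on its named transcripts in each sample, for Psat1, Shmt1, Shmt2 and Mthfd1l, with grey for all other transcripts. Shmt1-206 takes 21.0% in TCR+DMGV replicate 2 and under 1% in the other samples, and the Shmt2 split is nearly flat.

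Genes around the pathway did not pass the threshold either. Of 42 neighbouring genes in 5 lists 33 could be tested, and 0 had an adjusted p under 0.05 in edgeR, with 2 at an unadjusted p under 0.05, a level that 3.19% of all genes reached. Fpgs, the synthase that adds glutamates to folate and so keeps it in the cell, was at 45.4, 50.1 and 53.8 CPM in TCR alone and at 56.5, 63.4 and 60.6 CPM in TCR+DMGV, higher without overlap (log2 fold change 0.27, SE 0.10, adjusted edgeR p = 0.999, exact permutation p = 0.1). Tyms, the thymidylate synthase that uses the folate carbon for DNA synthesis, was at 58.2, 67.0 and 63.6 CPM in TCR alone and at 56.6, 49.0 and 53.0 CPM in TCR+DMGV, lower without overlap (log2 fold change -0.25, SE 0.10, adjusted edgeR p = 0.999, exact permutation p = 0.1). The groups did not overlap for 4 of the 33 neighbouring genes tested, namely Fpgs, Tyms, Sptlc1 and Sardh, against 8.86% of all genes tested. Over the 12 folate enzymes tested, 7 had higher and 5 lower values, with a median of 0.019.

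Of the carriers of folate and serine, 7 were tested, with a median of 0.0077, and the smallest p belonged to Slc1a4 (-0.27, SE 0.18), a plasma membrane carrier of small neutral amino acids, and Sfxn1 (-0.13, SE 0.11), which carries serine into mitochondria. Among the genes of serine use 8 were tested, with a median of -0.019. Cth, which makes cysteine from cystathionine, was at 5.16, 5.68 and 4.88 CPM in TCR alone and at 3.06, 2.37 and 5.20 CPM in TCR+DMGV, and the groups overlapped (log2 fold change -0.57, SE 0.29). Sptlc1, a subunit of the enzyme that joins serine to palmitate, had a log2 fold change of 0.16 (SE 0.08). Of the glycine cleavage and methyl donor genes 4 were tested. Gcsh, the H protein of glycine cleavage, was at 0.065 (SE 0.093) on the same log2 scale, and Sardh at 1.43 (SE 0.90) rested on at most 14 counts per sample. Atf4 and Myc, transcription factors known to drive serine and folate genes, had log2 fold changes of 0.08 (SE 0.09) and 0.07 (SE 0.08).

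**Figure D5:**
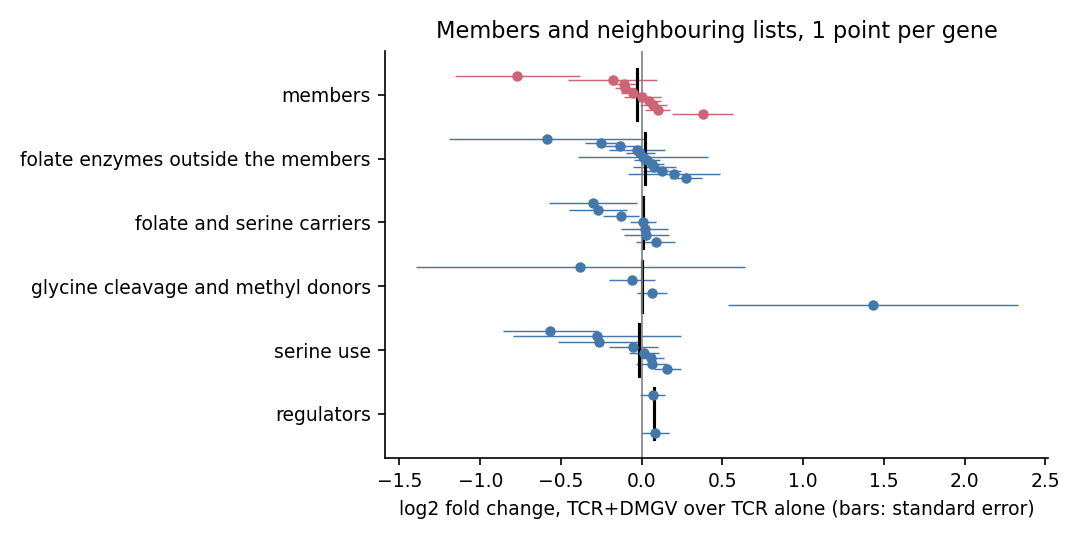
Log2 fold change of TCR+DMGV over TCR alone with its standard error for each tested gene, the 10 genes in red, 5 neighbouring lists in blue, and a black line at each median. The medians lie between -0.026 and 0.074, and Sardh at 1.43 has the highest value.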

How the data were processed

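RNA of 6 samples, 3 per group, was measured by RNA sequencing of poly(A) libraries. The authors removed adapter and low-quality reads with SOAPnuke, mapped them with HISAT2 2.0.4 (the submitters' processing notes also name the build mm9) and calculated expression with StringTie. The deposited counts give a whole number for each gene and each transcript, not normalized by the authors, and the step from StringTie to counts is not stated. The FPKM values that the authors deposited, per gene and per transcript, are scaled to length and to the size of each library. Besides the identifiers, the tables held only the columns of the 6 samples. The tables hold no coordinates: gene identifiers matched GENCODE M21 (GRCm38) without version for 99.7% and with version for 93.3% of 52550 genes, and symbols and positions come from it, so they may not be those of the build used for mapping.

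Gene counts equalled the sum of the transcript counts in all samples for 52220 of 52399 genes. Summed counts were 37758725 to 43718867 per sample. Samples were grouped by their labels. Counts of both groups were tested by quasi-likelihood in edgeR 4.0.16 (R 4.3.3), with TMM scaling, the default filter on low counts (14786 genes, 38401 transcripts) and Benjamini-Hochberg adjustment over all features, two-sided at 0.05. It was tested on simulated data (196 of 14447 genes given a log2 fold change of 1, up or down), which gave 8 wrong calls. CPM values use TMM-scaled library sizes. Ratios, shares and sums were compared by two-sided exact permutation tests, for which 0.1 is the smallest p. Alternatives were DESeq2 1.42.0, limma 3.58.1 on log2(FPKM + 1) and log2(FPKM + 0.1), other scalings, no filter, a GC correction, a replicate block and samples left out.

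All 10 genes were named, together with each transcript holding at least 10% of its gene's counts in any sample, the neighbouring genes past the threshold or with the 2 smallest p of their list, and the 3 genes most like each of the 3 most variable genes above 3 log2 CPM. The genes and lists were chosen with earlier results of these data known. With each count taken as a single read, which is not certain here, no pair of replicates agreed within sampling noise (median chi-square per gene 3.89 to 9.00). Similar copies were searched with blastn 2.17.0 at 90% identity over at least 200 bases. Promoter windows are from RefSeq.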

Additional observations from a re-analysis of the deposited data

How the results depend on the processing

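The count of 0 among the 10 genes held in all 17 alternatives run on genes, and that of 0 among their transcripts in the 11 run on transcripts, which were scalings, no filter, the block and samples left out in edgeR. At an unadjusted p under 0.05 the count among the genes became 1 without TCR+DMGV replicate 2 (Psat1) and 1 without TCR+DMGV replicate 3 (Aldh1l2). The count over all genes, 2 in edgeR, was 14 in DESeq2, 1 with library size alone, 1 without the filter, 0 in limma on log2(FPKM + 1), and 12 without both samples apart on the first principal component, with 0 to 5 when each sample was left out, the 5 without TCR+DMGV replicate 1. At unadjusted p under 0.05, limma on log2(FPKM + 1) gave 737 genes. Psph, at 0.0035 in log2 fold change, turned to -0.0021 in DESeq2, -0.0030 with DESeq2-style size factors, -0.0100 with library size alone, -0.0029 and -0.0026 in limma with pseudocounts of 1 and 0.1, and -0.013 with the GC correction. With each sample left out Psph ran from -0.12 to 0.067, Mthfd1 from -0.020 to 0.12 and Shmt1 from -0.019 to 0.10. Shmt2 was 0.014 without both apart samples, and the median was then -0.11 for the neighbouring folate enzymes, -0.077 for carriers, -0.036 for glycine cleavage and methyl donors and 0.070 for serine use, each of opposite sign to the value with all samples. The median of these enzymes ran from -0.080 to 0.071 with each sample left out, and that of serine use from -0.13 to 0.055. The log2 difference in the ratio of Mthfd2 to Mthfd2l was -0.077 on FPKM + 1 and ran from -0.13 to 0.30 with each sample left out. For shares of the leading transcript, in percentage points, these ranges were -1.44 to 0.446 for Mthfd1, -1.31 to 3.02 for Mthfd1l, -0.0575 to 0.0476 for Mthfd2, -0.192 to 0.0532 for Phgdh and -0.651 to 1.90 for Psph. The causes were not tested.

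Samples with the same replicate number did not deviate together (correlations of -0.154, 0.121 and -0.148 across 14786 genes), so the numbers were not taken to pair them. The highest correlation between the groups, 0.310, was that of TCR alone replicate 3 with TCR+DMGV replicate 1. These samples stood apart on the first principal component and could mask a pairing, so the check cannot exclude one. With the replicate block 0 genes passed, and with the GC correction and replicate block 0 passed, Psph then being at -0.0058. The block changed no call among the 10 genes. Counts of 30 to 135 per sample limit Aldh1l2 and Mthfd2l, and intervals cover these samples alone.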

Other observations

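Phgdh has 19 annotated sequences elsewhere in the genome that resemble its transcripts at 90.4 to 98.8% identity, most of them processed pseudogenes. The highest counts among them were 50 to 83 for Gm7901 and 26 to 64 for Gm9347, against 16553 to 22698 for Phgdh itself, and several had 0 counts in all samples. How reads common to Phgdh and these copies were assigned is not stated. Psat1 and Shmt2 have a similar pseudogene each, Gm12611 with 0 counts and Gm15544 with 0 to 2.

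Of the 9 neighbouring genes that could not be tested, Ftcd, Folr1, Folr2, Dmgdh and Bhmt had no count in any sample. Amt, a subunit of the glycine cleavage system, reached 14 counts, Pipox 5, Sds 7 and Sdsl 8. Folr1 and Folr2 are folate receptors.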
